A study of Mus musculus with 48 samples.

Results

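The loss of NRDE2 was measured by RNA-seq in mouse embryonic stem cells (mESCs) in separate experiments, each with 2 *Nrde2*-KO and 2 wild-type (WT) libraries. These 8 of the 48 samples of the series were chosen because their labels give an *Nrde2* knockout or its WT without cycloheximide (CHX), an inhibitor of translation. The first experiment is the one that the study set beside its other mutants, and the second consists of the libraries labelled untreated, for which CHX-treated counterparts exist. All cells are male, of hybrid 129-C57BL/6 background, carry a tamoxifen-activated Cre recombinase and were grown with serum, LIF and 2i, the inhibitor pair that keeps mESCs in a naive state. Both groups are the conditional line, in which loxP sites lie in introns 4 and 6 of *Nrde2*. In the *Nrde2*-KO cells 4-hydroxytamoxifen (4OHT) at 100 nM for 4 days activated Cre, which removed exons 5 and 6. The WT cells are the uninduced line without 4OHT, so effects of the deletion and of 4OHT or Cre cannot be told apart, and the edited line descends from single clones. The labels number the libraries but do not say whether these came from separate cultures, so the p-values below measure the spread between libraries, which may be technical.

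NRDE2 is a nuclear protein that binds the RNA helicase MTREX, a cofactor of the nuclear RNA exosome, and CCDC174, a protein linked to the spliceosome. The study that produced these data examined its role at 5′ splice sites (5′SSs), the exon-intron borders that U1 snRNA recognises by base pairing. A site that departs from the U1-complementary sequence pairs less well and is called weak. Cultures of mESCs also hold a rare subpopulation, called 2C-like, that transcribes genes of the 2-cell embryo, such as the *Zscan4* cluster.

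The deleted part of *Nrde2* lies on the minus strand of chromosome 12 of GRCm38. Exon 5 spans 100143739 to 100144189 (451 bases) and exon 6 spans 100141893 to 100142298 (406 bases). Together they hold 857 coding bases, 23.1% of the 3718 exonic bases, and 857 leaves a remainder of 2 when divided by 3, so the exons downstream are out of frame. The 5′SSs of the 3 introns that the study examined most closely are printed first, followed by the 5′SS with the fewest matches in 4 of the 5 lowered genes with the highest WT level, which are described below. Each line gives the last 8 bases of the exon and the first 12 of the intron, and capitals mark bases that match CAGGTAAGT, the 9 bases complementary to the 5′ end of U1 snRNA (3 in the exon and 6 in the intron).
*Cdk2* intron 1, chr10:128704700-128704719, minus strand, 7 of 9 matches: ctcgaCAcGTgAGTggcctc
*Dnmt1* intron 10, chr9:20932103-20932122, minus strand, 5 of 9 matches: gaaaaaAGGcAAagtcctta
*Tti1* intron 5, chr2:157995369-157995388, minus strand, 5 of 9 matches: ccttcaAGGTActgacaccc
*Scd2* intron 2, chr19:44295179-44295198, plus strand, 5 of 9 matches: tctcttcGGTgAGcagcacc
*Fasn* intron 6, chr11:120820233-120820252, minus strand, 5 of 9 matches: ggagcaAGGTggGcatggag
*Ckb* intron 5, chr12:111670861-111670880, minus strand, 5 of 9 matches: ggcatatGGTAcGagccccc
*Cad* intron 42, chr5:31077689-31077708, plus strand, 4 of 9 matches: atgaagctGTgAGcacaagg
These sites were read from the genome and GENCODE release M21, and whether they were used differently in the mutant was not tested here. The study calls the *Cdk2* site weak and reports that a point mutation improving its U1 complementarity made a luciferase reporter insensitive to NRDE2 loss. Its 7 matches lie above the mean of 6.38 over 5′SSs of all tested protein-coding genes. The count of matches weighs each base alike, and it is not the splice site strength that the study scored. The last 4 sites were chosen for having the fewest matches, so their low counts follow from that choice. Of all 145380 5′SSs, 17.1% matched at 5 or fewer bases.

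The targeted gene was examined first. *Nrde2* had 18.7 and 19.9 normalized CPM (CPM, the reads of a gene relative to the total of its library, further scaled between libraries) in the *Nrde2*-KO libraries of the first experiment and 41.3 and 40.0 in WT. In the second experiment the values were 19.5 and 19.14 in *Nrde2*-KO and 52.8 and 51.5 in WT. The groups did not overlap, and *Nrde2* was 2.37-fold lower over both experiments (log2 fold change −1.24, SE 0.08, limma adjusted p = 3.55e-08). Reads of the exons left in place are counted too, so the remaining level does not measure how complete the deletion was. In Ribo-seq, which sequences the mRNA fragments covered by ribosomes, *Nrde2* had 2.33 and 3.24 normalized CPM in 2 *Nrde2*-KO libraries and 12.2 and 14.2 in 2 WT libraries (log2 fold change −2.16).

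Between 28683644 and 33814363 reads per RNA-seq library fell in genes. The first principal component held 47.9% of the variance and separated *Nrde2*-KO from WT, and the second held 35.2% and separated the experiments. The labelled cell type was checked with 10 mESC markers, *Pou5f1*, *Nanog*, *Sox2* and *Esrrb* among them, and all 10 were present. *Pou5f1* had means of 816 and 983 normalized CPM in WT and 620 and 735 in *Nrde2*-KO of the first and second experiment, and *Nanog* had 1004 and 904 in WT and 923 and 996 in *Nrde2*-KO. Fibroblast markers were low, as 5 of 13 passed the filter on low values and *Col5a2*, the highest of these, stayed between 3.27 and 5.97 in all libraries. Markers listed for other lineages were not all low. Over the WT libraries, 15 tested primitive endoderm genes summed to between 1519 and 1691 normalized CPM, 17 of trophectoderm and simple epithelium to between 415 and 499, and 5 of neuroectoderm to between 107 and 209, and which cells carried them was not tested.

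Over both experiments, 396 genes were raised and 337 were lowered in *Nrde2*-KO. The raised genes were mostly scarce in WT and were led by genes of the 2C-like state, whereas the lowered genes had a higher median level in WT and included *Rack1*, *Fasn*, *Scd2* and the Nodal inhibitors *Lefty1* and *Lefty2*. Here a gene counts as raised or lowered when its Benjamini-Hochberg adjusted p from limma is below 0.01 and its change exceeds 2-fold, the thresholds of the study. The 733 genes are 5% of the 14654 genes tested, those that averaged 0.5 CPM or more, and the raised and lowered genes are 2.7% and 2.3%. Raised genes made up 54.0% of the calls, but 64.6% with CPM as deposited and 41.2% of 432 calls with 1 in place of 0.25 added before log2. The median raised gene went from 0.68 to 2.27 normalized CPM in the first experiment and from 0.762 to 3.06 in the second. The median lowered gene went from 25.4 to 11.3 and from 24.0 to 10.02. Changes above 4-fold were found for 71 raised and 10 lowered genes, and changes above 8-fold for 7 raised genes and none of the lowered. All fold changes are on the scale of log2(normalized CPM + 0.25), which understates the change of scarce genes.

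Both experiments showed the same changes to a large extent. Taken alone, the first had 446 raised and 328 lowered genes (3.04% and 2.24% of those tested, 5.28% together) and the second 368 and 390 (2.51% and 2.66%, 5.17% together). Without *Nrde2*-KO replicate 1 the first had 502 called genes in place of 774. Raised in both were 267 genes, 59.9% of the first list and 72.6% of the second, and lowered in both were 241, 73.5% and 61.8%. No gene was called in opposite directions. Of the 179 genes raised in the first experiment alone, 175 were also higher in *Nrde2*-KO in the second, 41 of them with an adjusted p below 0.01. Of the 149 genes lowered in the second alone, 148 were also lower in the first, 98 of them with an adjusted p below 0.01. Most genes called in 1 experiment thus missed a threshold in the other without turning direction. Over all tested genes, 80.1% had the same sign in both. Across genes, which are not independent replicates, the log2 fold changes of the experiments, which share no library, had a Pearson r of 0.844 and a Spearman rho of 0.801. Of the 733 genes called over both experiments, 393 of 396 raised and 334 of 337 lowered genes had no overlap between *Nrde2*-KO and WT libraries within either experiment, against 22.6% and 27.2% of all tested genes. The call itself selects for such separation.

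**Figure D1:**
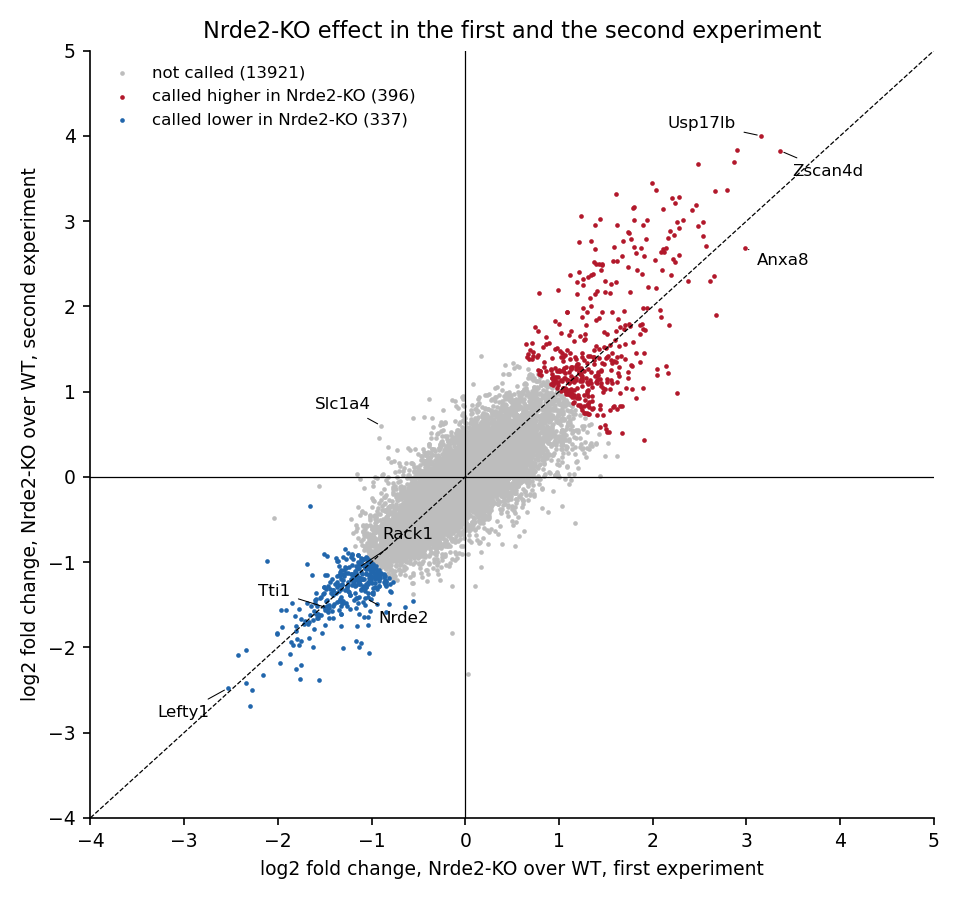
Each point is 1 of 14654 tested genes, placed by its log2 fold change, *Nrde2*-KO over WT, in the first (x axis) and the second experiment (y axis), with genes called over both experiments in red (396 raised) and blue (337 lowered) and the dashed line marking equal changes. Red and blue points lie at the upper right and lower left, the most raised genes lie above the line, and *Slc1a4* lies on opposite sides of 0 in the experiments.

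The largest increases were those of the 2C-like state. *Zscan4d*, a member of a gene cluster linked to telomere elongation in mESCs, had 11.8 and 8.43 normalized CPM in *Nrde2*-KO and 0.902 and 0.615 in WT of the first experiment. In the second it had 27.7 and 30.2 in *Nrde2*-KO and 1.82 and 1.78 in WT. It was 12.1-fold higher over both experiments (log2 fold change 3.59, SE 0.15, adjusted p = 8.93e-10). *Usp17lb*, which encodes a deubiquitinating enzyme, had 6.55 and 3.63 against 0.271 and 0.384, and 24.5 and 20.2 against 1.21 and 1.1 in the second experiment (log2 fold change 3.58, SE 0.20). *Gm8300* had 8.05 and 6.09 against 0.782 and 0.666, and 22.1 and 23.01 against 1.30 and 1.40 (log2 fold change 3.37, SE 0.18). For each of the 3 genes, every *Nrde2*-KO library was above every WT library of both experiments. *Usp17le*, *Gm5039*, *Usp17la*, *Gm2016*, *Usp17lc* and *Gm13119* followed, with log2 fold changes between 2.74 and 3.28. Members of the *Zscan4*, *Usp17l* and *Gm2016*-like families are near-identical in sequence, and as only uniquely mapping reads were counted, the split among them is uncertain.

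Of 42 genes listed as 2C-like, 26 passed the filter, and 25 of these 26 were raised in *Nrde2*-KO, against 2.7% of all tested genes. The filter takes the mean over all libraries, so a gene this scarce in WT can pass it through its *Nrde2*-KO libraries alone. *Ddit4l*, the other member, had means of 6.22 in WT and 13.6 in *Nrde2*-KO of the first and 12.1 and 18.6 normalized CPM of the second experiment (log2 fold change 0.87). The summed level of the 26 genes was between 11.6 and 15.2 normalized CPM in the WT libraries of the first experiment and between 67.6 and 93.4 in *Nrde2*-KO. In the second experiment it was between 27.7 and 34.4 in WT and between 243 and 269 in *Nrde2*-KO. The 4 groups did not overlap, and both WT and *Nrde2*-KO stood higher in the second experiment. The median log2 fold change was 2.16 in the first experiment and 3.09 in the second, and 2.65 over both. For genes this scarce the value depends on what is added before log2, and over both experiments it was 1.8 with 1 added, 3.02 with 0.1 added, 3.49 by edgeR and 3.43 by DESeq2. The change on this scale was larger in the second for 25 of the 26, against 50.2% of all tested genes. No single member passed the test of the difference, and the lowest adjusted p among them was 0.367, that of *B020004J07Rik*. The amount added before log2 lowers a change more where levels are lower, and these genes were scarcer in the first experiment. *Usp17la*, for example, had WT means of 0.079 and 0.22 normalized CPM in the first and second, both below the 0.25 added. How much of the larger change in the second comes from the amount added was not tested. In bulk RNA, a larger share of cells in this state and more of these RNAs per cell cannot be told apart.

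*Anxa8*, which encodes a calcium-dependent phospholipid-binding protein, was the most raised protein-coding gene outside this list. It had 38.1 and 38.9 normalized CPM in *Nrde2*-KO and 4.39 and 4.95 in WT of the first experiment, and 32.3 and 18.8 against 4.65 and 2.83 in the second (7.12-fold, SE 0.17 on the log2 scale, adjusted p = 1.31e-08). Ribosome occupancy rose alike, with 16.3 and 14.6 against 1.95 and 2.53 in Ribo-seq. *Anxa3* was also raised (log2 fold change 1.08), and the other 8 tested annexins were not called. Of the 10 tested annexins, 3 had an adjusted p below 0.01 and were higher and 3 were lower. The shares of all tested genes were 14.8% and 20.8%. The raised genes with the highest WT level were *Trp53inp1*, *Peg10*, *Sdc4*, *Tex19.1* and *Plk2*. *Trp53inp1*, a p53 target that acts in autophagy and cell death, had 897 and 868 against 381 and 332, and 651 and 716 against 289 and 279 (2.44-fold). *Peg10*, an imprinted gene derived from a retrotransposon, went from 141 and 137 in WT to 431 and 311 in *Nrde2*-KO, and from 76.5 and 64.2 to 216 and 192. *Sdc4*, a cell-surface proteoglycan, was 2.17-fold higher and *Plk2*, a stress-responsive kinase, 2.49-fold.

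**Figure D2:**
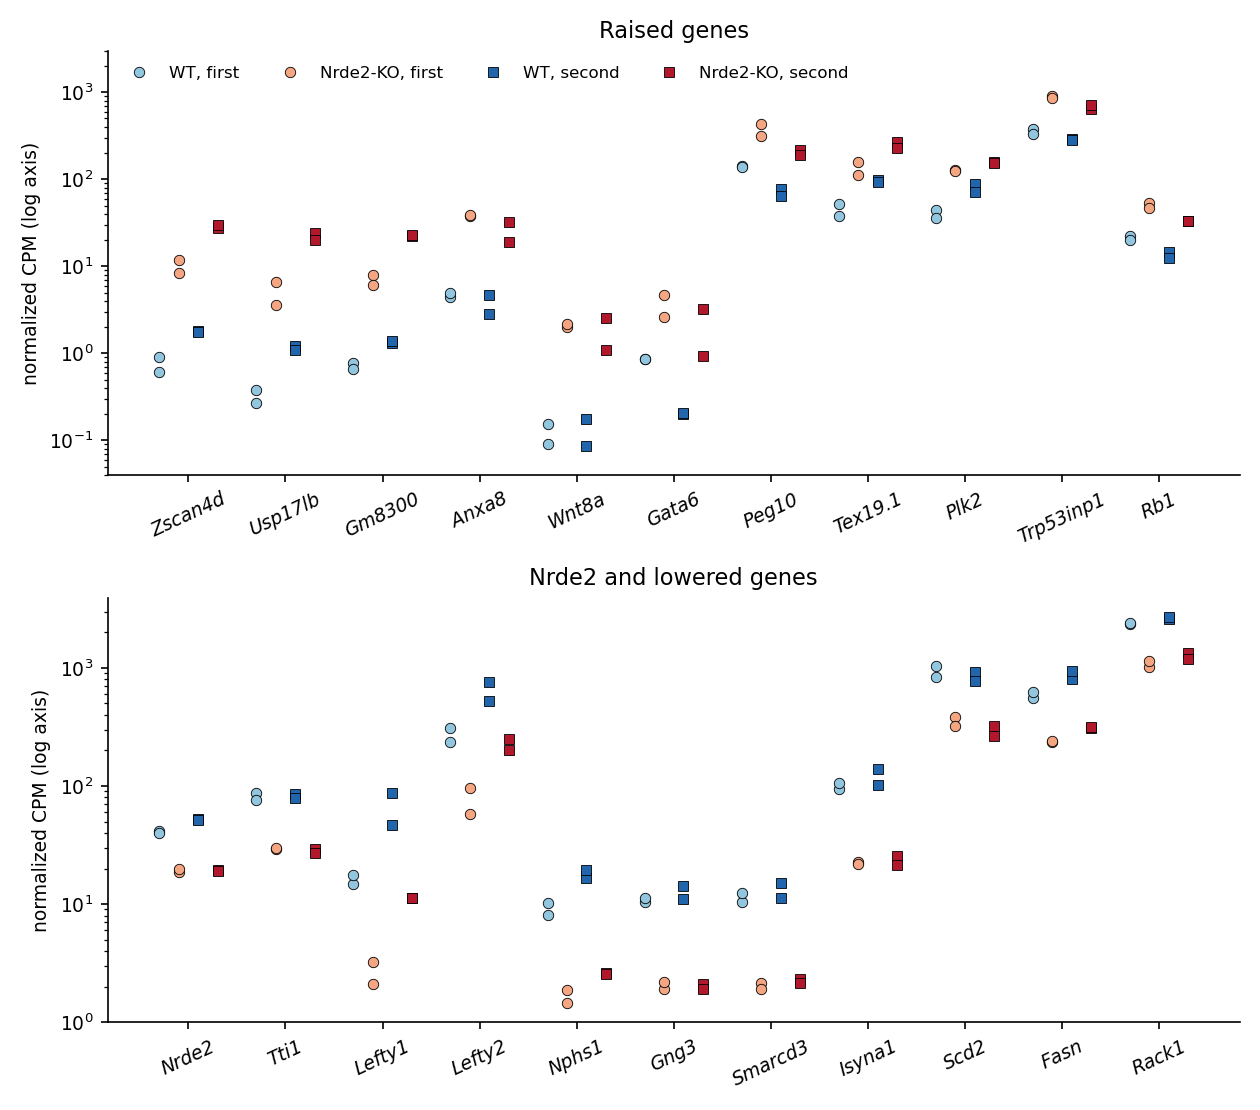
Normalized CPM (log axis) of 11 raised genes in the upper panel, and of *Nrde2* and 10 lowered genes in the lower panel, in each of the 8 libraries, with circles for the first and squares for the second experiment and light and dark blue for WT. Within each experiment the *Nrde2*-KO points of every gene shown lie on 1 side of the WT points, while *Zscan4d*, *Usp17lb*, *Gm8300*, *Lefty1* and *Lefty2* stand higher in the second experiment in both genotypes.

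Among the lowered genes, the largest decrease was that of *Lefty1*, a secreted inhibitor of Nodal. It had 2.09 and 3.23 normalized CPM in *Nrde2*-KO and 14.9 and 17.7 in WT of the first experiment. In the second it had 11.2 and 11.3 in *Nrde2*-KO and 46.6 and 88.0 in WT. The 5.67-fold decrease (SE 0.17 on the log2 scale, adjusted p = 4.43e-08) was alike in the experiments, with log2 fold changes of −2.53 and −2.48, although its WT level was higher in the second. *Nphs1*, which encodes nephrin, was 5.63-fold lower, *Gng3*, a G protein gamma subunit, 5.22-fold and *Smarcd3*, a subunit of BAF chromatin remodellers, 5.20-fold. *Isyna1*, the enzyme that makes inositol phosphate from glucose 6-phosphate, had 22.6 and 21.7 against 93.9 and 106, and 25.8 and 21.5 against 102 and 139. *Calca*, *Nt5dc2* and *Plk5* were also among the largest decreases of protein-coding genes, with log2 fold changes between −2.07 and −1.98.

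The lowered genes with the highest WT level were *Rack1*, *Scd2*, *Fasn*, *Ckb* and *Cad*. *Rack1*, a protein of the small ribosomal subunit, had 1013 and 1140 normalized CPM against 2355 and 2404, and 1325 and 1183 against 2579 and 2684, a 2.16-fold decrease. *Fasn*, the fatty acid synthase, had 234 and 242 against 558 and 625, and 311 and 317 against 810 and 940. *Scd2*, a fatty acid desaturase, was 2.76-fold lower, *Cad*, the enzyme that starts pyrimidine synthesis, 2.29-fold, and *Ckb*, the brain-type creatine kinase, 2.07-fold. *Rack1* and *Scd2* share exonic bases with small RNA genes on their strand.

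The genes of the introns printed first were also lower. *Tti1*, a subunit of the complex that stabilises PI3K-related kinases, had 29.5 and 29.8 against 87.1 and 76.8, and 29.1 and 27.0 against 85.1 and 79.3. Its 2.83-fold decrease (SE 0.07 on the log2 scale) had the log2 values −1.46 and −1.54 in the experiments, whose difference had a 95% interval from −0.36 to 0.19. *Cdk2*, a kinase of the S phase, had 84.5 and 89.6 against 130 and 140, and 69.4 and 80.9 against 113 and 125, a 1.56-fold decrease that passed on adjusted p (2.41e-06) but not on fold. *Dnmt1*, the maintenance DNA methyltransferase, had 292 and 291 against 460 and 477, and 321 and 299 against 523 and 549, a 1.67-fold decrease (adjusted p = 1.58e-07). In Ribo-seq the log2 fold changes were −1.01 for *Tti1*, −1.32 for *Cdk2* and −1.03 for *Dnmt1*. In mRNA *Mtrex* (−0.23, limma adjusted p = 0.00618) and *Eif4a3* (−0.23, limma adjusted p = 0.00506) passed on adjusted p but not on fold. *Ccdc174* (0.19, limma adjusted p = 0.0287) passed on neither.

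Ribo-seq of *Nrde2*-KO and WT, made from other libraries, gave the same directions. Of the 396 raised genes, 252 had enough Ribo-seq reads to be tested, and 245 of these, 97.2%, were higher in *Nrde2*-KO, against 50.2% of all genes tested in Ribo-seq. Of the 308 lowered genes tested, 293 were lower, 95.1% against 49.8%. By the same thresholds 98 of the 252 were raised in Ribo-seq and 154 of the 308 were lowered, against 3.62% and 2.8% of all 13857 genes (6.42% together), and none was called in the opposite direction. The median log2 fold change was 1.15 in Ribo-seq and 1.23 in RNA-seq for the raised genes, and −1.06 and −1.2 for the lowered genes. The 2C-like genes named above were below the filter in Ribo-seq, and *Zscan4d* had 0.358 and 0.518 normalized CPM in *Nrde2*-KO and 0 in both WT libraries.

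The pluripotency network was affected in part. Of 10 mESC markers only *Utf1*, a chromatin-associated factor of undifferentiated cells, was called lower (log2 fold change −1.03), while 6 of the 10 had an adjusted p below 0.01 in that direction. Of all tested genes, 20.8% were lower and 14.8% higher at an adjusted p below 0.01 and any fold. The summed level of the 10 was between 5894 and 6126 normalized CPM in WT and between 4335 and 4716 in *Nrde2*-KO of the first experiment, and between 5915 and 6056 against 5086 and 5258 in the second. *Klf4*, *Nanog*, *Zfp42* and *Sox2* had log2 fold changes between −0.17 and 0.02 and did not pass. Of 24 tested genes of the naive pluripotency list, which shares members with the 10, 8 had an adjusted p below 0.01 and were lower and 2 were higher. At any p, 16 of the 24 were lower and 8 higher, and the median log2 fold change was −0.197. The 2 called genes of this list were *Utf1* and *Tcl1*, a coactivator of AKT kinase, which was 2.78-fold lower. In the LIF-STAT3 pathway, through which the medium sustains self-renewal, 6 of 12 tested genes had an adjusted p below 0.01 and all 6 were lower, although none passed 2-fold. *Lifr*, a LIF receptor subunit, was at −0.74, *Il6st*, its partner, at −0.56, *Stat3* at −0.53 and *Socs3*, a feedback inhibitor and target of STAT3, at −0.87.

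Of 16 tested genes of Nodal and activin signalling, none was raised, and *Lefty1* and *Lefty2*, known targets of the pathway, were among those lowered. *Lefty2* had 57.8 and 96.8 normalized CPM against 236 and 310, and 202 and 251 against 528 and 753 (log2 fold change −1.67). *Nodal*, the ligand, was higher at 0.46 (adjusted p below 0.01 but under 2-fold), and its coreceptor *Tdgf1* was at −0.63. *Lefty1* and *Lefty2* were also higher in WT of the second than of the first experiment, by 1.96 and 1.22 on the log2 scale. Among 17 Wnt targets and primitive streak genes, *Wnt8a* (2.51) and *Rnf43* (1.05) were raised and *Bmp4* (−1.54) was lowered. Of the FGF-ERK list *Phlda1* alone was called, and it was raised (1.02).

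Among the lists of lineage genes, few members were called. *Gata6*, a factor of primitive endoderm, had 4.70 and 2.65 normalized CPM against 0.872 and 0.871, and 3.23 and 0.946 against 0.202 and 0.208 (3.89-fold). *Dab2*, an endocytic adaptor of the same lineage, was 2.33-fold higher, and the other 13 tested genes of this list were not called, *Sox17* and *Hnf4a* among them. Of the 15, 6 had an adjusted p below 0.01 and were higher and 2 were lower, against 14.8% and 20.8% of all tested genes. The summed level of the 15 was between 1519 and 1691 normalized CPM in WT and between 1363 and 1451 in *Nrde2*-KO of the first experiment. In the second it was between 1604 and 1658 in WT and between 1427 and 1462 in *Nrde2*-KO. Of 17 tested genes of trophectoderm and simple epithelium, 6 had an adjusted p below 0.01 and were lower and 2 were higher. Of all tested genes, 20.8% were lower and 14.8% higher by this measure. The summed level of the 17 was between 438 and 480 normalized CPM in WT and between 334 and 345 in *Nrde2*-KO of the first experiment, and between 415 and 499 against 293 and 385 in the second. The 2 higher genes were *Cdx2* and *Gata3*, factors of trophectoderm, which were 2.50-fold and 2.44-fold higher, at levels between 0.722 and 4.95 in all libraries. *Cdx2*, *Gata3* and *Dab2* fell below 2-fold with 1 in place of 0.25 added before log2. None of the 9 formative and primed epiblast genes, 5 neuroectoderm genes or 5 fibroblast genes tested was called.

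Of 24 tested p53 targets, 14 had an adjusted p below 0.01 and were higher and 2 were lower, where 14.8% of all tested genes were higher and 20.8% lower, and *Trp53inp1* and *Plk2* passed 2-fold. The median log2 fold change was 0.46 in the first and 0.29 in the second experiment, against −0.02 and −0.01 over all tested genes. *Ccng1*, a cyclin-like inhibitor of p53 signalling, was at 0.82, *Pmaip1*, a promoter of cell death, at 0.82 and *Mdm2*, the ubiquitin ligase of p53, at 0.71, while *Trp53* itself was at −0.46 and *Cdkn1a* at 0.16, the latter with an adjusted p above 0.05. Of 29 cell cycle genes, 16 had an adjusted p below 0.01 and were lower and 2 were higher, again against 20.8% and 14.8% of all tested genes. *Cdc25b*, a phosphatase that activates cyclin-dependent kinases, was the only one lowered past 2-fold (−1.01), and *Rb1*, which restrains entry into S phase, was the only one raised past it, with 52.9 and 46.4 against 22.4 and 20.1, and 33.3 and 33.1 against 14.7 and 12.4. *Cdk4* was at −0.84, *Ccne1* at −0.55 and *E2f1* at −0.51.

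Of 18 germline genes, many of which are silenced by DNA methylation in somatic cells, 9 had an adjusted p below 0.01 and were higher and 2 were lower, against 14.8% and 20.8% of all tested genes. *Tex19.1*, a germline factor that restrains retrotransposons, had 113 and 158 against 38.2 and 51.4, and 266 and 228 against 98.0 and 93.5 (2.78-fold), and *Asz1*, of the piRNA pathway, was 2.17-fold higher. *Uhrf1*, which recruits DNMT1, was at −0.64 and *Dnmt3b* at −0.13, and none of 13 DNA methylation genes was called. None of 27 genes of NRDE2 partners and the nuclear exosome, 15 of the exon junction complex and nonsense-mediated decay, 20 of U1 snRNP and 5′SS recognition, or 14 noncoding hosts of small nucleolar RNAs was called. Of the TTI1 complex and its kinase clients *Tti1* was the only one of 12 called. Of 12 YAP-responsive genes *Thbs1* alone was called (1.14). As 5% of all tested genes were called, counts of 0 or 1 in lists of this size lie near the background. At an adjusted p below 0.01 and any fold, 11 of the 27 partner and exosome genes were lower and 1 was higher. Of the exon junction and decay list 5 were higher and 0 lower, and of the U1 list 6 were lower and 0 higher. Higher and lower were 3 and 1 of the hosts, 0 and 4 of the TTI1 list, and 5 and 1 of the YAP list. For DNA methylation they were 1 and 3. Of all tested genes, 14.8% were higher and 20.8% lower by this measure.

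**Figure D3:**
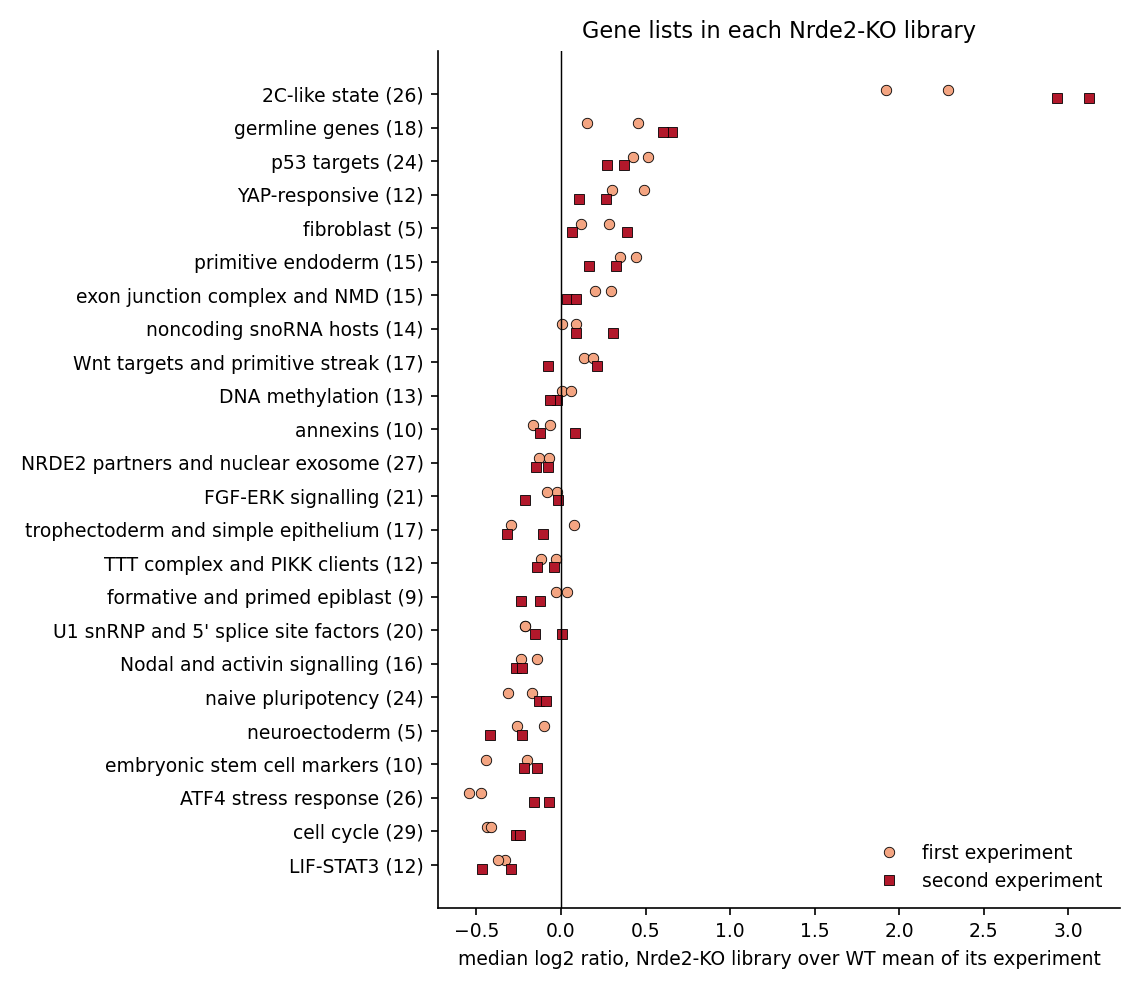
Median log2 ratio over the tested genes of each list (number in brackets), for each *Nrde2*-KO library over the mean of the WT libraries of its experiment, with circles for the first and squares for the second experiment. The 2C-like list lies between 1.92 and 3.13, all other lists lie within 1 of 0, and the ATF4 list is lower in both libraries of the first experiment than in those of the second.

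The test of the difference between the experiments called no gene at the thresholds above (0% of 14654). An unadjusted p below 0.05 was found for 1402 genes by limma, 1394 by edgeR and 1120 by DESeq2. DESeq2 called 3 genes, *Slc1a4*, *Nupr1* and *Zfp365*, and edgeR none. The test could not exclude moderate differences, as the 95% interval of a difference reached 0.393 on the log2 scale to either side for the median tested gene and 0.648 for the median called gene. Fitted differences above 2-fold were found for 99 tested genes and for 45 of the 733 called genes. Several of the 99 rested on 1 library, such as *Lars2*, which had 196, 196 and 263 normalized CPM in 3 libraries of the second experiment but 20.4 in *Nrde2*-KO replicate 2.

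*Slc1a4*, which encodes a transporter of neutral amino acids such as serine and alanine, was the only gene with a limma adjusted p below 0.05 for the difference. With the replicate number as a block, *Slc39a14* passed as well (limma adjusted p = 0.00743). *Slc1a4* had 15.1 and 14.7 normalized CPM in *Nrde2*-KO and 28.0 and 27.8 in WT of the first experiment. In the second it had 7.63 and 7.92 in *Nrde2*-KO and 4.62 and 5.50 in WT. It was thus lower in *Nrde2*-KO in the first (log2 fold change −0.90) and higher in the second (0.60), a difference of 1.49 (95% interval 1.11 to 1.88, adjusted p = 0.0278). Without any 1 of the 8 libraries the difference kept its direction, with a limma adjusted p of 0.0204 without WT replicate 2 of the second experiment and between 0.0572 and 0.348 without each of the others. Its WT level was 2.41 lower on the log2 scale in the second than in the first, and this value and the difference share the WT libraries. In Ribo-seq it had 35.3 and 32.4 in *Nrde2*-KO and 25.6 and 29.6 in WT, which did not pass (adjusted p = 0.047).

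*Slc1a4* belongs to the genes that ATF4 activates when amino acids are scarce, and the 26 tested genes of the ATF4 list, which did not include it, were examined next. In the first experiment 23 of the 26 were lower in *Nrde2*-KO and the median log2 fold change was −0.48. In the second 14 were lower and the median was −0.13. The change was higher in the second for 22 of the 26, against 50.2% of all tested genes, and no member passed limma's test of the difference, while DESeq2 called *Nupr1* (adjusted p = 0.00177). *Mthfd2*, a mitochondrial enzyme of folate metabolism, had 117 and 114 against 223 and 231 in the first experiment and 102 and 107 against 129 and 125 in the second (difference 0.69, adjusted p = 0.113). *Atf4* itself was at −0.09 and 0.45, *Atf3* at −0.24 and 0.78 and *Nupr1* at −0.36 and 0.69. In WT, 9 of the 26 were lower past 2-fold in the second than in the first, against 1.7% of all tested genes, and none was higher. *Chac1*, which breaks down glutathione, differed most, with 12.8 and 2.58 normalized CPM in WT of the first and second experiment. *Aldh1l2*, a mitochondrial folate enzyme, was at −1.61 and −1.58, and it was the only member called over both experiments. Differences between experiments and between their WT levels share the WT libraries, so the 1 does not bear on the other independently, and what set the cultures apart is not given in the labels.

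**Figure D4:**
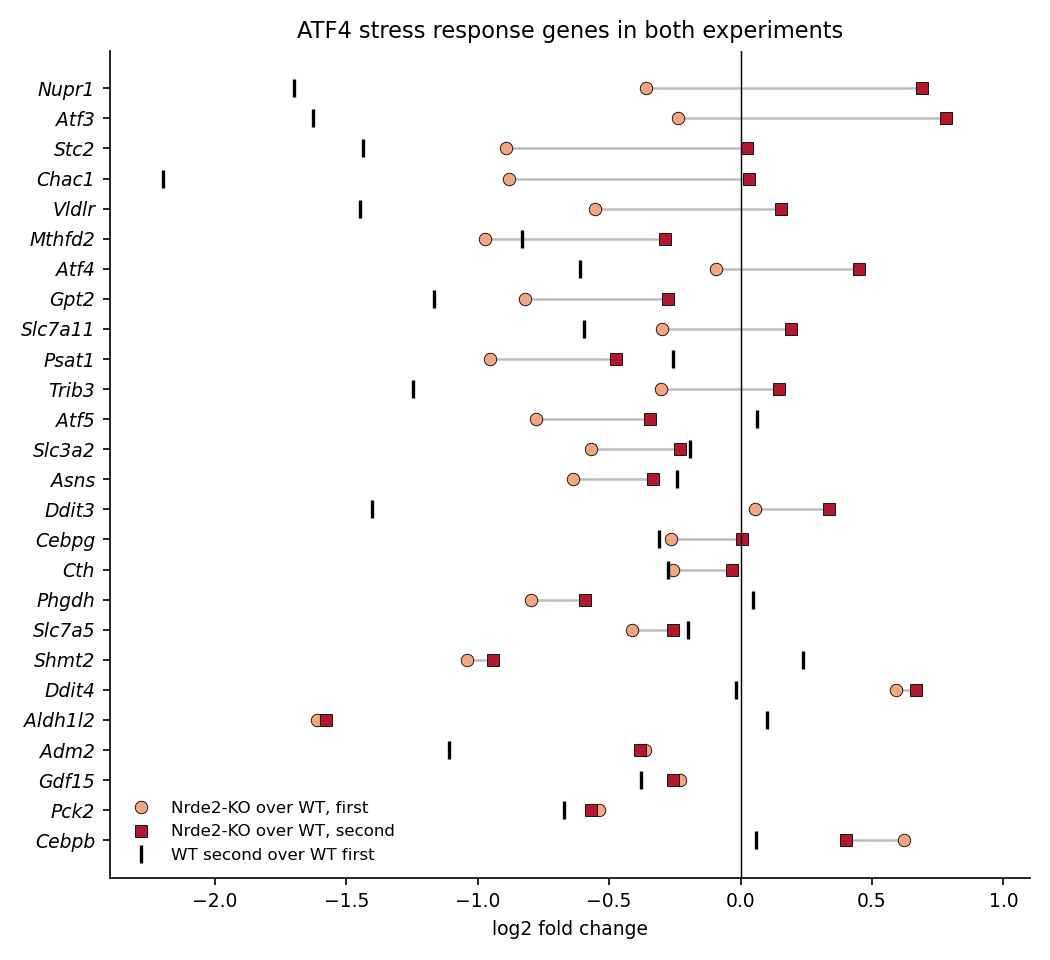
Log2 fold change of the 26 tested ATF4 stress response genes, *Nrde2*-KO over WT, in the first (circles) and second experiment (squares), joined by a line, with a black bar for WT of the second over WT of the first experiment, ordered by the difference. Most squares lie to the right of their circles, and 9 black bars lie below −1.

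Between the WT groups, which hold the same genotype, 217 genes were higher and 249 lower in the second experiment (1.48% and 1.7% of those tested, 3.18% together). *Enox1*, *Myc* and *Lrrn2* led the higher and *Slc1a4*, *Chac1* and *Zc3h6* the lower genes, chosen by size after their values were seen. The count of 466 fell to 239 without WT replicate 1 of the first experiment, to 270 without WT replicate 2 of the second, to 221 with 1 in place of 0.25 added before log2 and to 260 without a filter.

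The calls were also counted by class of gene. Of 1010 long noncoding genes 32 were raised and 4 lowered (3.17% and 0.396%), of 599 pseudogenes 29 and 2 (4.84% and 0.334%), and of 12887 protein-coding genes 335 and 330 (2.6% and 2.56%). The median log2 fold change was 0.21 for long noncoding genes, −0.15 for pseudogenes and −0.03 for protein-coding genes, so that the median pseudogene was lower although more pseudogenes were called raised. *Gm21542*, *AC127331.7* and *AC127331.1*, all processed pseudogenes, were the most raised noncoding genes (log2 fold changes 2.83, 2.78 and 2.76). The most lowered were *2410003I16Rik* (−2.18), *Lockd*, a noncoding RNA downstream from *Cdkn1b* (−1.48), and *Bc1*, a neuronal RNA that represses translation (−1.07).

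The protein-coding genes were then compared by what the annotation says of their introns, as a description without a test. Lowered genes had a median of 11 5′SSs, raised genes 8 and all tested genes 9. Of the 4641 5′SSs of lowered genes, 21.5% matched U1 at 5 or fewer of 9 bases, against 15.3% of the 3962 5′SSs of raised genes and 17.1% of all 145380. The position that differed most was the third base of the intron, where A, the matching base, stood in 48.0% of 5′SSs of lowered genes, 63.9% of raised and 60.2% of all, and G in 45.6%, 30.5% and 33.7%. Lowered genes also matched less often than all at intron bases +4 (65.2% against 69.2%) and +6 (41.6% against 48.2%) and exon base −2 (63.1% against 64.6%). They matched more often at intron base +5 (83.1% against 79.2%) and exon bases −1 (84% against 81.2%) and −3 (39.4% against 36.2%). The mean was 6.23 matches over 5′SSs of lowered genes and 6.38 over all.

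Lowered genes also had shorter introns and more G and C, features that were added after the values were seen. The median of the median intron length was 561.5 bases in lowered genes, 1892 in raised and 1551 in all tested genes, and the median GC content of the gene, introns included, was 51.1%, 45.0% and 46.2%. With the genes divided into 4 equal groups by GC content, 0.446% were lowered in the group of lowest and 5.54% in that of highest GC content. With 4 equal groups by intron length, 5.79% were lowered in the group of shortest and 1.15% in that of longest introns. Among genes of the shortest introns the share went from 0.735% (1 of 136 genes) to 6.91% with GC content, and among those of the longest from 0.601% to 2.13% (5 of 235 genes). In the first experiment alone, genes of the longest introns showed no such order, with 1.46%, 1.38%, 1.37% and 1.7% lowered from the lowest to the highest GC content. Over genes of all intron lengths the share rose with GC content in each experiment, with 0.987% and 4.71% of the groups of lowest and highest GC content lowered in the first and 0.541% and 6.94% in the second. The sets differ in level too, with a median WT level of 26.5 normalized CPM for lowered and 0.821 for raised genes, and how far this moves with the features was not tested.

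**Figure D5:**
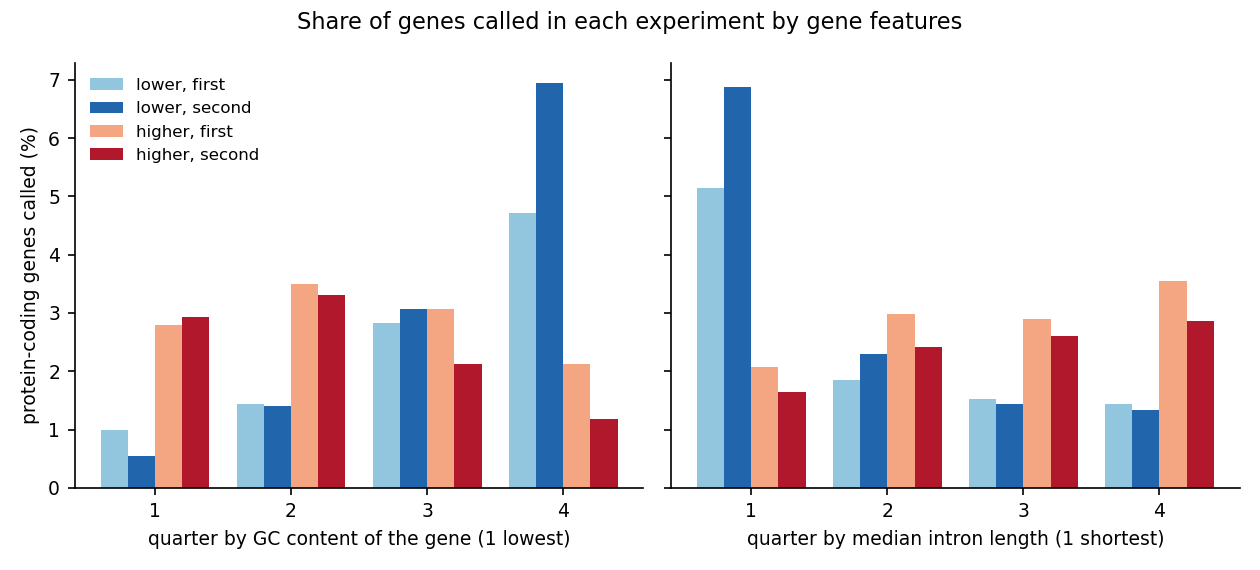
Share of protein-coding genes with introns (percent, y axis from 0) called lower (blue) or higher (red) in *Nrde2*-KO in the first (light) and second experiment (dark), in 4 equal groups of GC content on the left and of median intron length on the right. Lowered genes are most frequent at high GC content and short introns in both experiments, with 4.71% and 6.94% in the group of highest GC content and 5.15% and 6.87% in that of shortest introns.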

How the data were processed

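RNA-seq was measured in 8 libraries and Ribo-seq in 4. Alignment by the authors was to mm10 with STAR 2.7.3a. With featureCounts they took the reads that map once, on the strand of a GENCODE M23 gene, and deposited CPM for 55335 genes relative to a library total. For Ribo-seq the authors also trimmed reads and collapsed duplicates. Every deposited CPM (100%) corresponded to a whole read number within 0.1, from which read numbers were recovered. RNA-seq libraries held 28683644 to 33814363 reads in genes and Ribo-seq libraries 3475051 to 5035940, so genes near the filter rest on few reads. No column of the deposited tables outside the mapped samples was used.

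CPM were scaled between libraries by the median of ratios, and log2 was taken after adding 0.25. limma 3.58.1 (R 4.3.3) with a mean-variance trend was fitted to the 8 libraries for the 14654 genes that averaged 0.5 CPM or more. The effect over both experiments came from a fit with experiment as a block and 1 genotype term. It equals the mean of both effects, and a difference between the experiments adds to its spread. Another fit, with 1 group per genotype and experiment, gave the effect in each experiment, the WT comparison and the difference of the effects, an interaction contrast. Ribo-seq was fitted alone (13857 genes). Scripts were tested on simulated data. edgeR 4.0.16 and DESeq2 1.42.0 (at least 80 reads over the 8 libraries, 10 in Ribo-seq) on recovered reads, other pseudocounts (0.1 and 1), other filters, CPM as deposited, TMM, the replicate number as a block, all 20 RNA-seq libraries without CHX, and leaving out each library were the alternatives.

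Names, 5′SSs and GC content come from GENCODE M21 and GRCm38, which hold 55154 of the gene identifiers. Genes were compared across experiments by calls in each. Named genes are *Nrde2*, those the study names, the 10 protein-coding and 3 noncoding genes with the largest change each way (at least 1 normalized CPM, no overlap in either experiment), the 5 with the highest WT level each way, and up to 4 called members of each list or otherwise the 2 of highest level. Other names, *Slc1a4* and uncalled list members among them, were chosen after their values were seen. The members, lists and tests were chosen with earlier results of these data known. Some genes and 1 splice site that these rules select are not reported here.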

Additional observations from a re-analysis of the deposited data

Results flagged for a closer look

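The change of *Slc1a4* in *Nrde2*-KO differed between the experiments by a test of the difference itself, with a log2 difference of 1.49 (limma adjusted p = 0.0278). *Srrt*, a partner of the cap-binding complex, was higher in both *Nrde2*-KO libraries of the first experiment and lower in both of the second, with a difference of −0.245 that did not pass (adjusted p = 0.497). *Smg5*, a factor of nonsense-mediated decay, did the same with a difference of −0.414, which did not pass either (adjusted p = 0.424). The median of the list of 13 DNA methylation genes was above 0 in both libraries of the first experiment and below 0 in both of the second, where the median over the list was −0.0717, and this difference was not tested. With 2 libraries per group no single library could be examined as an outlier.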

How the results depend on the processing

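With 1 in place of 0.25 added before log2, 432 genes were called over both experiments, 428 in the first, 487 in the second, 293 in both and 221 between WT groups. Other alternatives gave more calls over both experiments, with 874 when 0.1 was added and 840 without a filter. The count tests called 948 genes by edgeR, 62% of them raised, and 1095 by DESeq2, 63.5% of them raised. Without a filter, 260 genes were called between WT groups and 561 in Ribo-seq. DESeq2 called 563 genes in Ribo-seq and 3 for the difference between the experiments (*Slc1a4*, *Nupr1* and *Zfp365*). With CPM as deposited, which moved the median of all genes between WT groups by −0.105, raised genes made up 64.6% of the calls over both experiments in place of 54.0%, 69.4% in place of 57.6% in the first, 75.5% in place of 56.4% in Ribo-seq, 63.5% in place of 52.6% of genes called in both, and 29.2% in place of 46.6% of those higher in the second WT. With 1 added, raised genes made up 41.2% over both experiments.

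Leaving out 1 library gave 712 to 785 calls over both experiments, 502 to 812 in the first (502 without *Nrde2*-KO replicate 1), 631 to 814 in the second, 0 for the difference, 239 to 524 between WT groups (239 without WT replicate 1 of the first and 270 without WT replicate 2 of the second), 759 to 945 in Ribo-seq, 374 to 478 in both, 46 to 51 list members, and 20.96 to 21.84% of 5′SSs of lowered genes with 5 or fewer matches. The remaining library of a group was then assumed to vary like the other groups. For *Slc1a4* the adjusted p of the difference was 0.146 without a filter and between 0.0204 and 0.348 without 1 library (above 0.05 for 7 of the 8). Of 80 named genes, none turned direction, and *Utf1*, *Rnf43*, *Phlda1*, *Cdc25b*, *Ckb*, *Bc1*, *Anxa3*, *Thbs1*, *Gata3*, *Dab2*, *Cdx2* and *Asz1* fell below 2-fold in at least 1 alternative. The median of the list of NRDE2 partners turned from −0.06 to 0.02 with CPM as deposited.

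Deviations of libraries with the same replicate number correlated across genes within both experiments (r = 0.281 and 0.118). Between the experiments, which share no library, r was 0.229 for WT and −0.0183 for *Nrde2*-KO. With 2 pairs in each experiment, the numbers were not taken as a pairing. With the replicate number as a block, the difference between the experiments called 2 genes, *Slc1a4* and *Slc39a14*, and no other count moved by over 1.5 times. The depth limits mainly Ribo-seq and genes near the filter.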
